A study of Mus musculus with 8 samples.

Results

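The 9 genes described here, Runx2, Runx1, Sp7, Dlx3, Dlx5, Dlx6, Msx1, Msx2 and Sox9, encode transcription factors that act in the osteoblast lineage of the skull or beside it. They were picked by name from a count table of 47706 genes from mouse calvarial osteoblasts, by a rule that uses no measured value although earlier results of these data were known, and all 9 were among the 16736 genes with enough counts to be tested. Primary osteoblasts, which the study isolated from the skulls of newborn mice, were differentiated for 7 days and then given parathyroid hormone (PTH, a peptide of residues 1-34) or vehicle for 24 hours, with 4 samples of each. The labels give no strain or genotype and do not explain the "Con" in the sample titles. No other genotype, age or agent was compared, and after serum starvation the PTH and vehicle samples differed only in the hormone as far as the sources say.

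The labels call the medium adipogenic, whereas the study's methods describe an osteogenic one. The summed level of 10 osteoblast markers lay between 92825 and 105280 CPM (counts scaled to a common library size) in vehicle samples and between 86841 and 125500 CPM with PTH, and that of 9 adipocyte markers between 46.4 and 65.4 CPM and between 41.5 and 63.6 CPM. Col1a1, Col1a2 and Sparc, at vehicle means of 44362, 35071 and 16750 CPM, made up most of the osteoblast sum. Vehicle means of the other osteoblast markers ran from 40.5 CPM (Phex) to 1407 CPM (Ibsp). The samples thus carried osteoblast marker RNA, for most markers at levels above the adipocyte sum. Total counts per library ran from 33605610 to 56090654. Tnfsf11 encodes RANKL and is a known PTH target. It was at 0.987 to 1.79 CPM in vehicle samples and 115 to 157 CPM with PTH, as the labels have it. Macrophage markers were also present, with a summed level of 1046 to 1700 CPM in vehicle samples and 1636 to 2119 CPM with PTH. Lyz2, at means of 914 CPM with vehicle and 1417 CPM with PTH, made up most of this sum. Of the macrophage markers, 3 of 10 (Cd14, Lyz2 and Tyrobp) were upregulated, near the 23.3% of all genes tested. For Cd14 and Lyz2 the treatments overlapped. The part of these cells in the results was not tested. The 5 endothelial markers summed to at most 6.97 CPM, with Emcn at 0 counts in all samples, and the 6 muscle markers to at most 9.34 CPM. The labels do not say whether the samples came from separate cultures or litters, so p-values measure only the spread between these samples.

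RUNX2 is the runt-domain factor without which osteoblasts do not form, and SP7 (osterix) is a zinc-finger factor that acts after it in the same lineage. RUNX1 is a relative of RUNX2 best known from blood formation that is also present in skeletal progenitors. DLX3, DLX5 and DLX6 are distal-less homeodomain factors that take part in bone formation. MSX1 and MSX2 are homeodomain repressors of the skull and teeth that recognize a similar DNA core. SOX9 directs cells to cartilage. PTH acts through the G protein-coupled receptor PTH1R, which raises cyclic AMP, and can either build or remove bone depending on how it is given.

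Promoter windows were available from RefSeq for Runx2, Runx1, Msx1 and Msx2, each from 250 bases before an annotated start to 50 bases after it on GRCm38.p6, and were not for Sp7, Dlx3, Dlx5, Dlx6 and Sox9. The windows of the RUNX pair are printed because both genes have such a start carrying their own family's motif while their RNAs moved in opposite directions. Capitals mark the RUNX motif TGTGGT, read as ACCACA on the other strand. The Runx2 window lies at chr17:44814578-44814877 on the minus strand and the distal Runx1 window at chr16:92826025-92826324 on the minus strand.
Runx2 window: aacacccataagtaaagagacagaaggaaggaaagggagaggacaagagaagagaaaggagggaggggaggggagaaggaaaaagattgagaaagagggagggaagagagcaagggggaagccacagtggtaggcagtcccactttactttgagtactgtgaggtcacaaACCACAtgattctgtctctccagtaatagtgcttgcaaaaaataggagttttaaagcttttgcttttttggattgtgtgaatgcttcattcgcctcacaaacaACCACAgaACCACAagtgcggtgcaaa
Runx1 distal window: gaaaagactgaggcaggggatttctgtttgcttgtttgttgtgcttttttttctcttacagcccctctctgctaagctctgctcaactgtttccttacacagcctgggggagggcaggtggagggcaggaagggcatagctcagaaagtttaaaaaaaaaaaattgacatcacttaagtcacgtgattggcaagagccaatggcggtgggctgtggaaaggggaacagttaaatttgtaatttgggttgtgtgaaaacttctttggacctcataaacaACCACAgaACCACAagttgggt
The Runx2 window held the motif 3 times, its first base at positions -80, 24 and 32 with the start base as 1, and the distal Runx1 window held it 2 times, at positions 29 and 37. The last 2 copies in each stand in a run of 22 bases that is the same in both windows.
Shared run: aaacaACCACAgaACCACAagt
No other pair of the 5 windows shared a run of over 10 bases. The motif was present in 16.8% of 32851 promoter windows of this length, and the proximal Runx1 window (chr16:92697280-92697579, minus strand) and both Msx windows lacked it.

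The Msx windows are printed as those of the upregulated homeodomain pair. They lie at chr5:37824536-37824835 for Msx1 and chr13:53472731-53473030 for Msx2, both on the minus strand, and capitals mark the short core TGACG of the cyclic AMP response element (CGTCA on the other strand).
Msx1 window: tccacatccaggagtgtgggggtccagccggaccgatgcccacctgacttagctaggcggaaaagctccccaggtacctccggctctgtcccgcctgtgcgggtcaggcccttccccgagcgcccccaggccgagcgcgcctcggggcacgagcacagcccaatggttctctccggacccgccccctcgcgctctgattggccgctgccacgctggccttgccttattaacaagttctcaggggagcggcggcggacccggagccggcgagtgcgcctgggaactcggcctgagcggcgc
Msx2 window: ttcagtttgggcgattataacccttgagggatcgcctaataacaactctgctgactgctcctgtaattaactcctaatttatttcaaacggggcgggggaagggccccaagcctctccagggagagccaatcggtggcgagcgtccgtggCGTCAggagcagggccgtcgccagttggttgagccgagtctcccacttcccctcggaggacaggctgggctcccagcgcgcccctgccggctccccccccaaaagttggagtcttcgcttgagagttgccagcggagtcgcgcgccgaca
The core was present once, from position -100 of the Msx2 window, and not in the Msx1 window. It was found in 20.8% of all windows, the full element TGACGTCA, which contains it, in 1.79%, the AP-1 motif TGANTCA in 7.81% and the homeodomain motif TAATTG in 8.0%. None of the last 3 was found in any of the 5 windows. A match of letters does not show binding, its absence from these windows says nothing of the factor, and gene counts do not tell which Runx1 start was used.

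Of the 9 genes, 3 were upregulated by PTH (Runx1, Msx2 and Msx1) and 5 were downregulated (Dlx3, Sp7, Dlx5, Dlx6 and Runx2) at an adjusted p under 0.05, and Sox9 was not called. Over all genes tested, 23.3% were called higher and 22.5% lower. In the same 3 genes the CPM of every PTH sample lay above that of every vehicle sample, against 21.2% of all genes. In the same 5 every PTH sample lay below, against 21.8%. For Msx1 the separation depends on the scaling of the libraries, as given below. For a single gene, 4 samples against 4 allow an exact two-sided permutation p of at least 0.0286, which these 8 genes reached. The changes ran from a 10.4-fold lower level of Dlx3 to a 2.35-fold higher level of Runx1, whereas the median log2 fold change of all genes tested was -0.00081. As these were bulk samples, fewer cells of a type and less RNA per cell cannot be told apart.

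**Figure D1:**
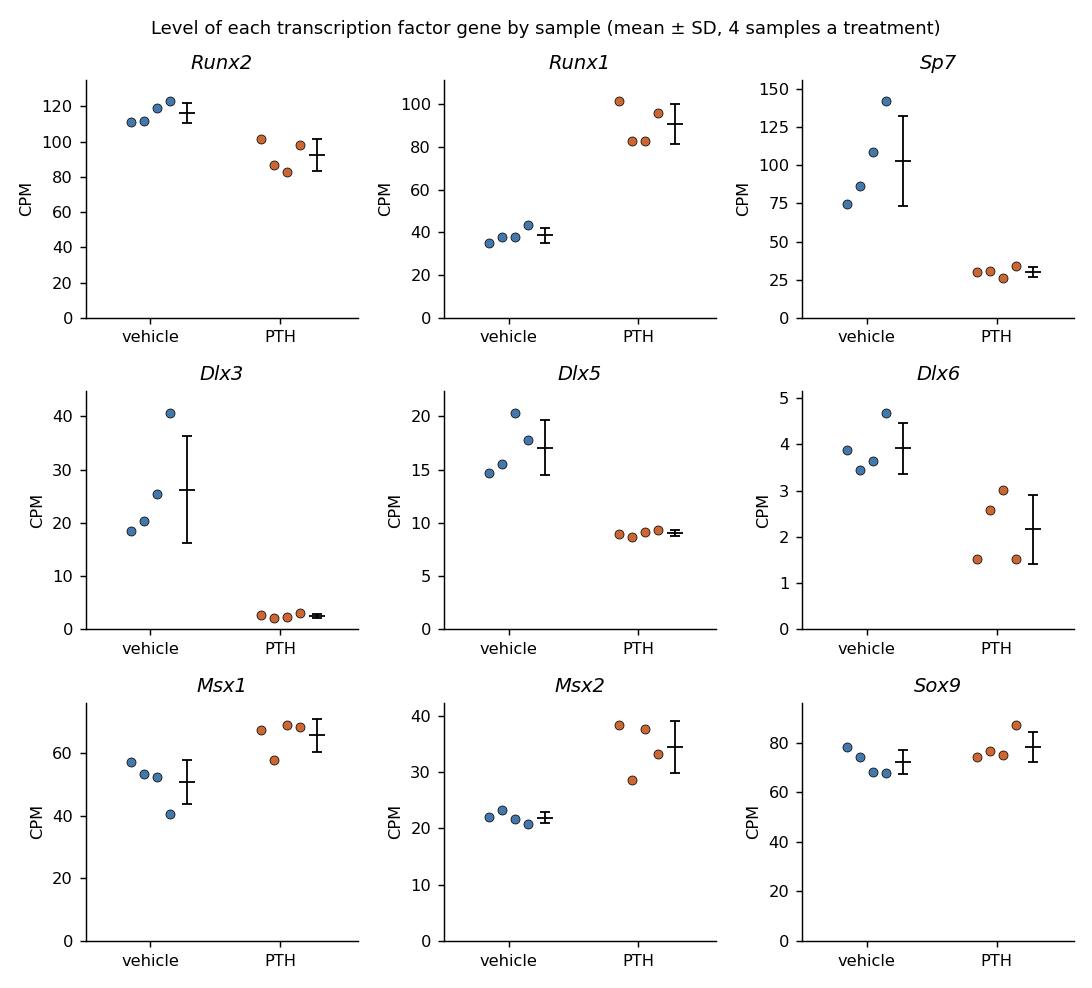
CPM of each of the 9 genes in each sample, with vehicle samples in blue and PTH samples in orange in order of replicate number, and the mean ± SD of 4 samples beside the points. The treatments overlap only for Sox9, and the vehicle samples of Sp7 and Dlx3 are spread more widely than their PTH samples.

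**Figure D2:**
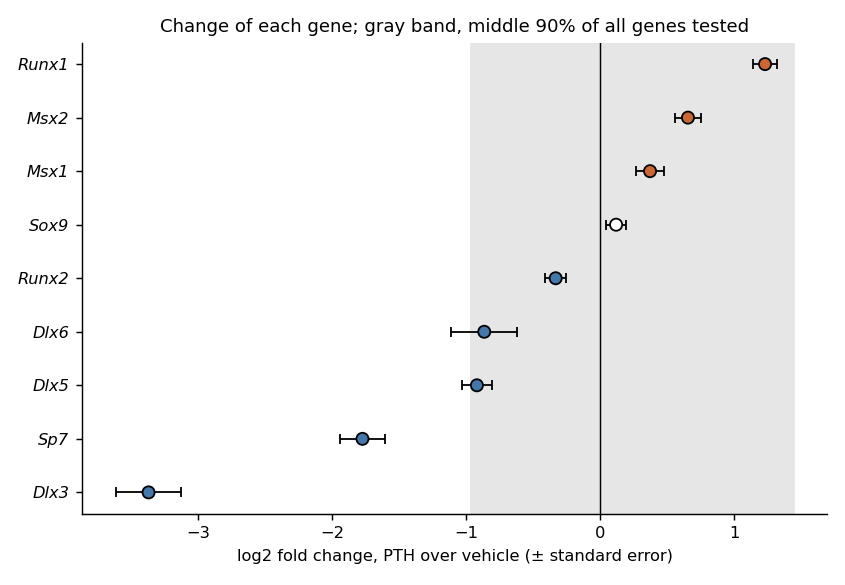
Log2 fold change of PTH over vehicle with its standard error for each gene, with orange for upregulated, blue for downregulated and white for not called. The gray band spans the 5th to 95th percentile of all genes tested (-0.96 to 1.44), and only Dlx3 (-3.37) and Sp7 (-1.78) lie outside it.

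Dlx3, which in humans underlies a disorder of hair, teeth and bone density, had the largest change of the 9. Its level was 18.5, 20.4, 25.4 and 40.7 CPM in vehicle replicates 1 to 4 and 2.61, 2.05, 2.38 and 3.04 CPM in PTH replicates 1 to 4. The lowest vehicle sample was thus 6.09 times the highest PTH sample, and counts fell from 830 to 2017 per library to 68 to 134. The log2 fold change was -3.37 ± 0.245 (SE, n = 4 and 4, edgeR adjusted p = 3.48e-07), the 9th largest decrease among all genes tested. The gene lies at chr11:95120119-95125296 on the plus strand (GENCODE M21, GRCm38, as for all genes below).

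Dlx5 and Dlx6, neighbors at one locus with partly shared function in the skull and jaws, were downregulated by less. Dlx5 (chr6:6877805-6882085, minus strand) was at 14.6, 15.5, 20.3 and 17.8 CPM in vehicle replicates 1 to 4 and at 8.97, 8.67, 9.11 and 9.32 CPM in PTH replicates 1 to 4. The PTH samples were close together and all below the vehicle samples, with a log2 fold change of -0.92 ± 0.110 (SE, edgeR adjusted p = 3.08e-05). Dlx6 (chr6:6863334-6868568, plus strand) was at 3.88, 3.44, 3.63 and 4.68 CPM with vehicle and at 1.52, 2.59, 3.002 and 1.52 CPM with PTH. It had only 64 to 232 counts per library, and the log2 fold change was -0.87 ± 0.245 (SE, edgeR adjusted p = 0.0123), and it missed the threshold with vehicle replicates 3 and 4 left out (-0.78, adjusted p = 0.0904). Dlx6os1, an antisense RNA whose gene spans Dlx6, was at 2.01 ± 0.345 CPM with vehicle and 1.70 ± 0.399 CPM with PTH (SD, n = 4 each; adjusted p = 0.468). The strand setting of the counting is not given in the sources used here, so reads of Dlx6 and Dlx6os1 cannot be told apart.

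The ratio of Dlx3 to Dlx5 within a sample tests whether these relatives moved by different amounts. On the log2 scale it went from 0.56 ± 0.419 in vehicle samples to -1.81 ± 0.193 with PTH (SD, n = 4 each), a difference of -2.37 with no overlap (exact permutation p = 0.0286, 0.04 adjusted over the 7 pairs compared). Dlx3 relative to Dlx6 differed by -2.39 with the same p. Dlx5 relative to Dlx6 differed by -0.02, with vehicle samples between 1.89 and 2.45 and PTH samples between 1.57 and 2.54 (exact permutation p = 1.0). Thus Dlx3 was lowered more than both of the others, and no difference between Dlx5 and Dlx6 was detectable with a spread this wide.

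Sp7 was downregulated 3.42-fold. Vehicle replicates 1 to 4 were at 74.8, 86.3, 109 and 142 CPM and PTH replicates 1 to 4 at 30.2, 30.4, 25.9 and 33.9 CPM. The vehicle samples spanned a 1.90-fold range, and the lowest of them was still 2.21 times the highest PTH sample. The log2 fold change was -1.78 ± 0.171 (SE, n = 4 and 4, edgeR adjusted p = 4.45e-06). The gene lies at chr15:102356606-102367182 on the minus strand.

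Runx2 was downregulated by far less. It was at 111, 112, 119 and 123 CPM in vehicle replicates 1 to 4 and 102, 86.7, 82.8 and 98.1 CPM in PTH replicates 1 to 4. The treatments did not overlap, but only a factor of 1.09 separated the lowest vehicle from the highest PTH sample. The log2 fold change was -0.33 ± 0.0764 (SE, n = 4 and 4, edgeR adjusted p = 0.00362), a 1.26-fold decrease, and with vehicle replicates 3 and 4 both left out it was -0.28 and no longer passed (adjusted p = 0.0656). Sp7 relative to Runx2 differed by -1.40 on the log2 scale between PTH and vehicle samples (exact permutation p = 0.0286, 0.04 adjusted over 7 pairs), so the pair did not fall in proportion. Runx2 (chr17:44495987-44814797, minus strand) overlaps the opposite-strand gene Supt3, at 8.80 ± 0.563 CPM with vehicle and 8.34 ± 0.943 CPM with PTH (SD, n = 4 each), and 3 annotated antisense RNAs. Of these Runx2os1 was at 0.347 ± 0.170 and 0.407 ± 0.0853 CPM, and Runx2os2 and Runx2os3 had at most 4 counts in any library.

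Runx1 was the member with the largest increase. Its 4 vehicle samples were at 35.2, 37.8, 38.1 and 43.6 CPM and its 4 PTH samples at 101, 82.8, 82.8 and 96.1 CPM, in order of replicate number. The lowest PTH sample was 1.90 times the highest vehicle sample, and the log2 fold change was 1.23 ± 0.0897 (SE, edgeR adjusted p = 3.55e-07). Runx1 (chr16:92601466-92826149, minus strand) overlaps the antisense gene Gm26626, which had at most 3 counts in any library.

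The balance of the RUNX pair shifted the most evenly of the ratios compared. Per read, Runx1 stood at 0.332 of Runx2 in vehicle samples and at 0.983 of it with PTH. On the log2 scale the ratio went from -1.59 ± 0.0756 to -0.02 ± 0.0299 (SD, n = 4 each), a difference of 1.56 without overlap (exact permutation p = 0.0286, 0.04 adjusted over 7 pairs). These SDs were the smallest of any pair within each treatment. Every PTH sample was above every vehicle sample for Runx1 and below for Runx2, so this ratio could not overlap. Its p-value was fixed by that and adds no support beyond the single genes. CBFB, the partner through which RUNX proteins gain stable DNA binding, was not called, with Cbfb at 139 ± 4.73 CPM with vehicle and 127 ± 4.45 CPM with PTH (SD, n = 4 each; edgeR adjusted p = 0.104). The third RUNX gene, Runx3, was upregulated from 17.0 ± 0.392 to 27.5 ± 1.42 CPM, or by 0.70 on the log2 scale.

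Both Msx genes were upregulated. Msx2 (chr13:53466884-53473074, minus strand) was at 22.0, 23.2, 21.6 and 20.8 CPM in vehicle replicates 1 to 4 and at 38.4, 28.5, 37.6 and 33.2 CPM in PTH replicates 1 to 4. The PTH samples all lay above the vehicle samples and were more widely spread, with a 1.58-fold increase (log2 fold change 0.66 ± 0.0954 SE, edgeR adjusted p = 1.44e-04). Msx1 (chr5:37820485-37824583, minus strand) was at 57.3, 53.3, 52.3 and 40.7 CPM with vehicle and at 67.6, 58.1, 69.3 and 68.6 CPM with PTH. Its highest vehicle sample and its lowest PTH sample were only a factor of 1.01 apart. This gap depends on the scaling used for CPM, with TMM factors of 0.914 to 0.990 in PTH and 1.03 to 1.06 in vehicle samples. Relative to total counts alone, Msx1 in PTH replicate 2 (1930 of 33605610) lay below vehicle replicate 1 (2566 of 43143560). The log2 fold change of Msx1 was 0.37 ± 0.101 (SE, edgeR adjusted p = 0.00984). Without vehicle replicates 3 and 4 the value for Msx1 was 0.25, which did not pass (adjusted p = 0.0870). Msx1 relative to Msx2 differed by -0.26 on the log2 scale with overlapping treatments (exact permutation p = 0.0857, 0.1 adjusted over 7 pairs), so a difference between the Msx genes was not shown.

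Sox9 was the only one of the 9 that was not called. Its level was 78.1, 74.3, 68.2 and 67.9 CPM in vehicle replicates 1 to 4 and 74.1, 76.7, 75.2 and 87.4 CPM in PTH replicates 1 to 4. The treatments overlapped. The log2 fold change of 0.12 ± 0.0742 (SE, n = 4 and 4) was smaller than the spread allows to be called (edgeR adjusted p = 0.214, exact permutation p = 0.229). Relative to Runx2, which fell, Sox9 was higher with PTH by 0.45 on the log2 scale (exact permutation p = 0.0286, 0.04 adjusted over 7 pairs). Sox9 lies at chr11:112782224-112787760 on the plus strand, and BC006965, an opposite-strand transcript that starts close by, was at 0.375 ± 0.192 and 0.274 ± 0.0670 CPM.

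**Figure D3:**
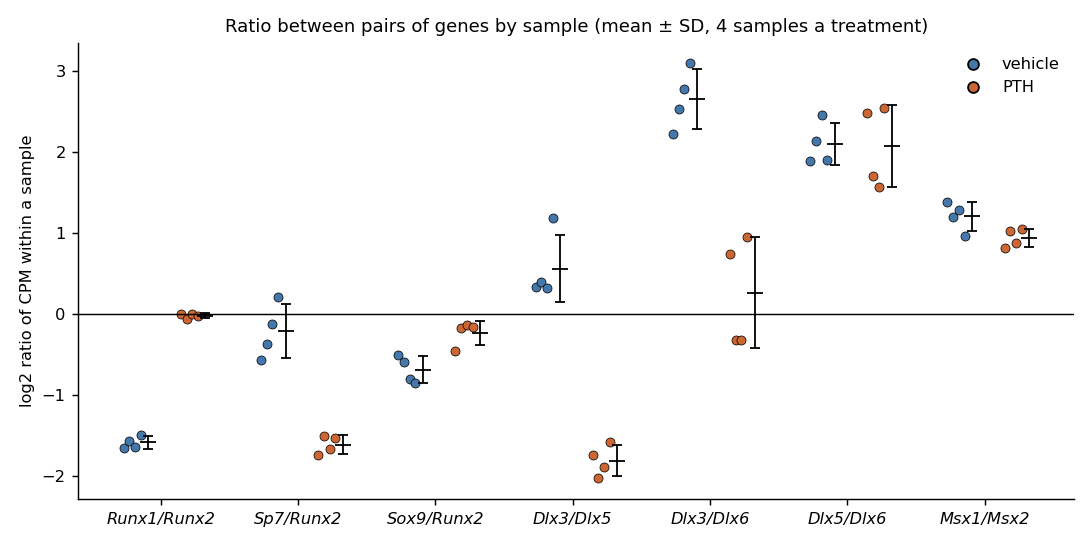
Log2 ratio of CPM between 7 pairs of genes within each sample, vehicle in blue and PTH in orange, with mean ± SD of 4 samples. Runx1/Runx2 moves from about -1.59 to -0.02 with little scatter, Dlx3 falls against both relatives, and the Dlx5/Dlx6 and Msx1/Msx2 ratios overlap between treatments.

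Levels of different genes were compared as CPM per kilobase of the longest annotated transcript. With vehicle, Sp7 (33.3 ± 9.55 SD) and Msx1 (26.3 ± 3.69) were highest and overlapped across samples, followed by Runx2 (18.0) and Sox9 (17.4), which also overlapped. Dlx5 (12), Dlx3 (10.1) and Msx2 (8.92) came next, all below Sox9, and Dlx3 overlapped both Dlx5 and Msx2, which did not overlap each other. Runx1 (6.60) lay below Msx2 without overlap but overlapped the wider range of Dlx3, and Dlx6 (1.76) was below all the others. With PTH the order became Msx1 (34.0), Sox9 (18.9), then Runx1 (15.5), Runx2 (14.3) and Msx2 (14.0) without separation between neighbors, Sp7 (9.72), Dlx5 (6.34), and Dlx6 (0.974) and Dlx3 (0.966) together at the bottom. Sp7 therefore went from the top of the order to the sixth place, and Dlx3 from a place beside Dlx5 to a level that could not be told from Dlx6. The order depends on the length used. Per kilobase of all annotated exons of a gene, Runx1 stood below Sp7 with PTH (7.55 against 8.85, overlapping) and Sox9 above Msx1 with vehicle (17.4 against 16.4, overlapping), with Sp7 first with vehicle (30.3) and Msx1 first with PTH (21.3) on either length.

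**Figure D4:**
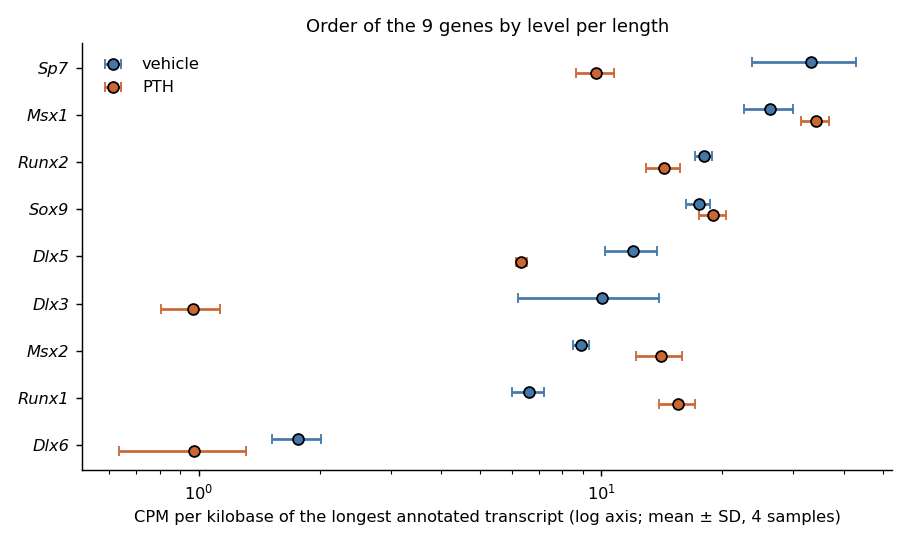
Level of the 9 genes per kilobase of the longest transcript on a log axis, mean ± SD of 4 samples, vehicle in blue and PTH in orange, ordered by the vehicle level. Sp7 and Dlx3 drop to 9.72 and 0.966 with PTH, while Msx2 and Runx1 rise past Sp7.

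Vehicle replicate 4 was the highest vehicle sample for 5 of the 9 genes, Sp7, Dlx3, Runx2, Runx1 and Dlx6, and the lowest for 3, Msx1, Msx2 and Sox9. The same sample was the highest vehicle sample for all 10 osteoblast markers, all 10 macrophage markers and 13 of 16 bone genes. These bone genes include all 10 osteoblast markers, so the counts are not separate. Over all genes tested it was the highest vehicle sample for 25.4%. Bglap (osteocalcin), for example, was at 210, 188, 240 and 370 CPM in vehicle replicates 1 to 4. Without it the log2 fold changes of Sp7 and Dlx3 were -1.58 and -3.08, and without vehicle replicates 3 and 4 they were -1.43 and -2.95, both still called. The part of this sample's state in these values was not tested beyond leaving it out.

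Most genes of a mixed list of bone targets and markers were not called. Of 16 bone genes known as RUNX2 or SP7 targets or osteoblast markers, 1 was upregulated, 2 were downregulated and 13 were not called, against 23.3% higher and 22.5% lower over all genes, with a median log2 fold change of -0.0045 against -0.00081 over all genes. Without PTH replicate 2, 2 were upregulated, and 3 were downregulated without PTH replicate 1 or with replicate number as a block. Col1a1, which encodes the main bone collagen chain, had a log2 fold change of 0.12, Alpl (alkaline phosphatase) 0.28, Ibsp (bone sialoprotein) -0.21 and Bglap 0.04. Vdr, the vitamin D receptor, was upregulated from 24.2 ± 6.42 to 1177 ± 118 CPM (SD, n = 4 each), or by 5.60 on the log2 scale. Dmp1, a matrix protein of osteocytes, was downregulated from 18.1 ± 6.05 to 8.27 ± 1.40 CPM, and Pth1r, the receptor itself, from 136 ± 21.1 to 83.6 ± 11.6 CPM. The summed osteoblast marker level of the PTH samples spanned the range of the vehicle samples, but Col1a1, Col1a2 and Sparc made up most of that sum. Whether the share of osteoblasts changed was not tested. Spp1 lies at an assembled locus with more than 1 symbol, so its counts are uncertain.

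**Figure D5:**
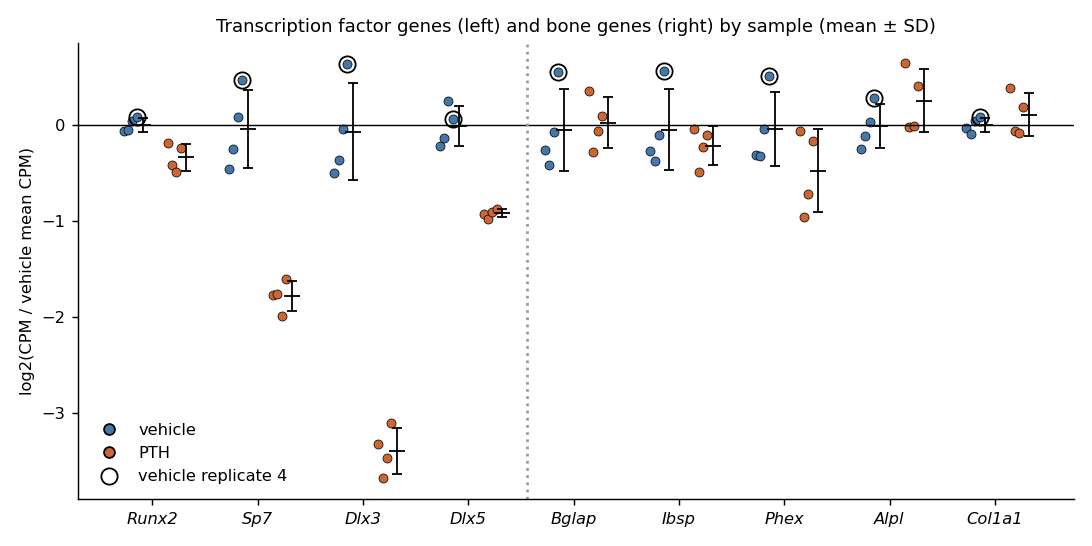
Log2 of CPM over the vehicle mean in each sample for 4 of the transcription factor genes (left of the dotted line) and 5 bone genes (right), with mean ± SD of 4 samples and vehicle replicate 4 circled. The PTH samples of Sp7 and Dlx3 lie far below their vehicle samples, while those of Bglap, Ibsp, Phex, Alpl and Col1a1 overlap them. The bone genes shown were picked from those not called, after their values were seen. The called bone genes, Dmp1, Pth1r and Vdr, did not overlap between treatments and are not drawn. All 4 factor genes shown are downregulated members.

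Of 16 tested cartilage genes known as SOX9 targets or chondrocyte markers, 3 were upregulated and 0 downregulated in edgeR (all genes, 23.3% and 22.5%), with a median log2 fold change of 0.04. The downregulated count was also 0 in DESeq2 and at an unadjusted p under 0.05, and 1 without PTH replicate 1. Col2a1, the main cartilage collagen, was higher by 0.44 (226 ± 3.49 to 307 ± 40.1 CPM, SD, n = 4 each), Acan (aggrecan) by 1.03 (11.4 ± 1.63 to 23.2 ± 4.0 CPM) and Chad (chondroadherin) by 1.71 (0.516 ± 0.209 to 1.69 ± 0.491 CPM). Col2a1 and Acan are also among the chondrocyte markers, whose summed level was 393 to 443 CPM in vehicle samples and 458 to 589 CPM with PTH. Col2a1 made up a large part of these sums, and 6 of the 8 chondrocyte markers tested were not called. Sox5 and Sox6, which act with SOX9 in cartilage, had log2 fold changes of 0.11 and 0.02 and were not called.

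Of 23 tested partners and regulators of RUNX2, 12 were upregulated and 5 downregulated, against 23.3% and 22.5% of all genes tested, with a median log2 fold change of 0.44. The histone deacetylase gene Hdac4, whose protein binds and represses RUNX2, rose from 25.3 ± 0.867 to 90.4 ± 10.3 CPM (SD, n = 4 each), or by 1.84 on the log2 scale (edgeR adjusted p = 5.12e-09). Zbtb16, a zinc-finger factor of osteogenic differentiation, rose by 1.88 on the log2 scale from 0.990 ± 0.383 to 3.64 ± 0.590 CPM. Zfp521, a repressor that binds RUNX2, fell by 0.90 from 147 ± 9.98 to 79.1 ± 10.6 CPM. Hdac5 and Smurf2, both called higher, lie at assembled loci with more than 1 symbol and are uncertain.

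Among 16 tested relatives of the 9 genes in the RUNX, DLX, MSX, SOX and SP families, 4 were upregulated and 5 downregulated (3 without vehicle replicates 3 and 4), near the 23.3% and 22.5% of all genes tested, with a median log2 fold change of -0.11. Sp6, another SP-family zinc-finger gene, known from tooth and limb epithelium, had 0, 0, 7 and 5 counts in vehicle replicates 1 to 4 and 241, 107, 186 and 223 counts in PTH replicates 1 to 4. It was thus near the limit of detection without PTH and at 3.22 to 5.30 CPM with it (log2 fold change 6.08 ± 0.535 SE, edgeR adjusted p = 2.03e-06), while Sp7 fell. Sox11, a SOX factor of neural and mesenchymal progenitors, rose by 2.30 on the log2 scale, from 3.46 ± 0.403 to 17.1 ± 1.37 CPM (SD, n = 4 each). Sox12, of the same subgroup as Sox11, fell by 1.69 from 30.8 ± 2.53 to 9.54 ± 1.05 CPM, and Dlx2 fell by 0.78 from 2.85 ± 0.448 to 1.66 ± 0.306 CPM.

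Of 27 other tested transcription factors of the calvaria and its progenitors, 10 were upregulated and 9 downregulated, beside 23.3% and 22.5% over all genes, with a median log2 fold change of 0.11. Foxc2, a forkhead factor of skeletal and vessel development, rose from 10.4 ± 1.37 to 97.7 ± 7.15 CPM (SD, n = 4 each), or by 3.24 on the log2 scale, which is larger than any increase among the 9 genes. The pair Lef1 and Tcf7, nuclear partners of beta-catenin in WNT signaling, moved apart, with Lef1 higher by 2.91 (1.37 ± 0.193 to 10.3 ± 2.22 CPM) and Tcf7 lower, from 38.4 ± 11.4 to 9.09 ± 1.99 CPM (log2 fold change -2.07). Snai2, a repressor of epithelial genes, fell from 64.9 ± 2.76 to 11.9 ± 1.25 CPM (log2 fold change -2.45). Twist1, whose protein binds and inhibits RUNX2, fell by 0.46 on the log2 scale.

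BMP signaling lies upstream of Dlx5, Msx2 and Runx2 in osteoblasts. Of 23 BMP ligands, receptors, SMADs and response genes tested, 11 were upregulated and 7 downregulated (23.3% and 22.5% of all genes), with a median log2 fold change of 0.09. The ligand gene Bmp4 fell from 101 ± 4.43 to 17.3 ± 2.31 CPM (SD, n = 4 each; log2 fold change -2.54) and the response gene Id1 from 24.9 ± 2.74 to 9.60 ± 1.57 CPM (-1.37). The secreted BMP antagonist gene Grem1 rose from 29.0 ± 1.08 to 122 ± 23.1 CPM (log2 fold change 2.07), and the ligand gene Bmp7 from 1.77 ± 0.480 to 5.44 ± 1.40 CPM (1.62). Unlike Id1, the response gene Id3 rose from 131 ± 2.97 to 248 ± 9.31 CPM (log2 fold change 0.92). Also called higher were Atoh8 (0.63), Smad7 (0.42), Bambi (0.42) and Id2 (0.24), whereas Id4 and Smad6 were not called. The response genes thus moved in both directions.

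The genes whose log2 CPM followed each factor most closely over the 8 samples were taken from 9791 tested genes averaging 10 CPM or more (9792 for Dlx6, which is itself below 10 CPM). All 8 samples share the treatment contrast, so the correlations mainly describe genes that moved with PTH in similar proportion across libraries. Mef2c, a MADS-box factor of muscle and bone, was closest to Dlx3 (Pearson r = 0.997) and the second closest to Sp7 (r = 0.992, after Cd2ap at 0.997). Mef2c was at 68.5, 77.0, 88.3 and 124 CPM in vehicle replicates 1 to 4 and at 23.0 to 26.5 CPM in PTH samples (log2 fold change -1.84). Like Sp7 and Dlx3 it was highest in vehicle replicate 4. The second for Dlx3 was Lgalsl (0.996).

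For the other genes the leading pairs were Fmnl3 (0.996) and Xpo5 (0.992) for Runx2, Ptger4 and Pkdcc (both 0.998) for Runx1, and Ppp1r13b (0.993) and Slc36a1 (0.990) for Dlx5. They were Bcap29 (0.976) and Fam126b (0.968) for Dlx6, Lamb1 (0.981) and Pax9 (0.973) for Msx1, Mpp2 (0.996) and Emb (0.991) for Msx2, and Gar1 (0.912) and Dnm2 (0.911) for Sox9. The number of genes with r above 0.95 ran from 0 for Sox9 and 9 for Msx1 to 603 for Dlx3 and 889 for Runx1.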

How the data were processed

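RNA sequencing was performed by the authors on poly(A)-enriched libraries from 4 PTH and 4 vehicle samples, with paired reads of 150 bases. Reads were aligned to GRCm38 with HISAT2 and assembled with StringTie2, whose companion script made the deposited table of raw counts, not normalized. This script assumes reads of 75 bases unless told otherwise, and the length, annotation and strand settings used are not given in the sources used here. Columns were assigned to samples by name, every column matched a sample, and no columns were identical. Only 2 entries had no symbol and were kept under their locus identifier, and 45432 entries had a symbol that matched GENCODE M21.

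Counts were tested with edgeR 4.0.16 in R 4.3.3 (TMM, filterByExpr with a minimum count of 10 and total of 15, two-sided quasi-likelihood F-test, Benjamini-Hochberg over 16736 genes, threshold 0.05, no minimum fold change). Standard errors are the log2 fold change over the square root of F. CPM use TMM-scaled library sizes. Ratios and single genes were compared by exact two-sided permutation tests on log2(CPM + 0.1) over 70 assignments in SciPy 1.17.1. The lists gave by name the 2 largest increases and 2 largest decreases with a mean of at least 1 CPM among called genes, apart from values not reported here. Cd14, Lyz2 and Tyrobp are markers that passed, and Runx3, Cbfb, Twist1, Sox5, Sox6, Hdac5, Smurf2, Col1a1, Col2a1, Alpl, Ibsp, Bglap, Phex and Spp1 were named after their values were seen. So were Col1a2, Sparc, Id2, Id3, Id4, Atoh8, Smad6, Smad7 and Bambi. Annotated genes overlapping a member or starting within 5000 bases of one were also named. The 9 members and all lists were chosen with earlier results of these data known. The motif scan covered both strands of RefSeq promoter windows. Alternatives were DESeq2 1.42.0, DESeq2 size factors, no count filter, a minimum log2 fold change of 1, another pseudocount (1), counts halved (as reads of 150 bases would give at an assumed 75), counts summed by symbol, leaving out each sample, leaving out vehicle replicates 3 and 4, the exon union as length, and a replicate block. Deviations of same-numbered PTH and vehicle samples from their group means correlated between -0.0409 and 0.0274 across genes, so no pairing by number was detectable. This check cannot tell whether same-numbered samples were prepared together. The steps were tested on simulated counts. Depth limits genes with few counts, such as Dlx6 (64 to 232 counts). Tables and plots used Python 3.11.15, pandas 2.3.3, NumPy 2.4.6 and matplotlib 3.10.9.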

Additional observations from a re-analysis of the deposited data

Results flagged for a closer look

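Across 62 groups of 4 samples examined, 2 had a sample further from the others than Dixon's limit for 4 samples, and chance gives about 1 in 20. Msx1 in PTH replicate 2 was at 58.1 CPM against 67.6 to 69.3 CPM in the other PTH samples, and without this sample the log2 fold change of Msx1 was 0.44. Tnfsf11 in PTH replicate 1 was at 157 CPM against 115 to 120.2 CPM in the other PTH samples, all far above the vehicle samples.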

How the results depend on the processing

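Counts of called genes are at an adjusted p under 0.05. Across the 15 alternatives with a test of each gene (DESeq2, DESeq2 size factors, no filter on low counts, counts halved, counts summed by symbol, the replicate block, leaving out each of 8 samples, and leaving out vehicle replicates 3 and 4 together), the direction of all 9 genes was kept. Runx1, Sp7, Dlx3, Dlx5 and Msx2 were called in all 15, Runx2, Dlx6 and Msx1 in 14 and Sox9 in 0. Leaving out vehicle replicates 3 and 4 together was chosen after seeing the data. It left 3 of the 9 genes downregulated, with Runx2 (-0.28, adjusted p = 0.0656), Dlx6 (-0.78, 0.0904) and Msx1 (0.25, 0.0870) missing the threshold with fewer samples. A minimum log2 fold change of 1 left 1232 genes higher and 650 lower, and 1 of the 9 genes higher (Runx1) and 2 lower (Dlx3 and Sp7). Without 1 sample, the genes called numbered 3412 to 4119 higher and 3259 to 3955 lower, with 3 and 5 of the 9 genes in each case. No pairing by replicate number was detectable, and with the replicate block 3571 genes were called higher and 3432 lower, again with 3 and 5 of the 9 genes. The 7 ratios kept their side of the threshold with log2(CPM + 1), and without 1 sample Dlx5 relative to Dlx6 lay between -0.18 and 0.15. Genes with few counts, such as Dlx6, are limited by depth, and a count table by gene does not resolve transcripts or strand.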
